A study of Mus musculus with 4 samples.

Results

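The 10 genes described here encode MHC class I heavy chains (H2-K1 and H2-D1), the light chain B2m, and the proteins that make, carry and load class I peptides (Psmb8, Psmb9, Psme1, Tap1, Tap2 and Tapbp), together with their transactivator Nlrc5. They were chosen by name, and 10 of 10 were listed in all 4 libraries, among 11195 genes listed in every library and 13036 listed in any. RNA of single cells was counted in mononuclear myeloid cells, sorted as CD45+CD11b+Ly6G-, from the synovium (joint lining tissue) of hind paws. All mice were Cx3cr1creER:tdTomato, in which tamoxifen switches on a red reporter in cells using the Cx3cr1 promoter, and all groups, day 0 included, share tamoxifen at 4 mg/ml, given 4 weeks before the serum. Cells came from steady state (day 0) and from days 1, 2 and 5 after transfer of arthritogenic K/BxN serum, which carries autoantibodies that inflame the joints of recipients. The age, the MHC haplotype and the number of mice behind each library are not given in the sources used here. There was 1 library per day, made with a 3′ droplet kit, so differences between days cannot be checked against replicates and are given without a test. All intervals are exact, at 95%, and cover counting error only.

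MHC class I molecules sit on nearly all nucleated cells and show them to CD8 T cells as a heavy chain paired with beta-2 microglobulin and a short peptide. The peptides are cut in the cytosol by the proteasome, in which interferon-inducible subunits can replace the constitutive ones, and are carried by the TAP transporter into the endoplasmic reticulum, where tapasin bridges TAP to empty class I. In tissue macrophages the pathway is held at a resting level that interferons raise, and NLRC5 is a transactivator of its promoters.

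In the mm10 build (GRCm38, GENCODE M21 annotation), 7 of the 10 genes lie on chromosome 17, in the MHC. Psmb9, Tap1, Psmb8 and Tap2 stand next to each other at chr17:34181987-34216321, with 495 bases between the end of Tap1 and the start of Psmb8. Psmb9 and Tap1 run in opposite directions and their annotated genes overlap by 212 bases at their starts. B2m lies at chr2:122147686-122153083, Psme1 at chr14:55578123-55581529 and Nlrc5 on chromosome 8. The promoter windows of 4 genes are shown because the RNAs of the heavy chains, the light chain and the transporter differ in their courses below. Each runs, in the RefSeq table (GRCm38.p6), from 250 bases before to 50 bases after the gene's start, 5′ to 3′ on the gene's strand, at chr17:34000298-34000597 (H2-K1, minus strand), chr17:35262844-35263143 (H2-D1, plus), chr2:122147437-122147736 (B2m, plus) and chr17:34187306-34187605 (Tap1, plus). Capitals mark matches, on either strand, to GGGGATTCC (from the kappa B site of the class I enhancer), to the interferon-stimulated response element as GAANNGAAA or GAAANNGAA, and to TGACG (core of the X2 box); no marked match overlaps another. Of the 2 windows listed for H2-K1, the one at the annotated start of the gene is given.
H2-K1: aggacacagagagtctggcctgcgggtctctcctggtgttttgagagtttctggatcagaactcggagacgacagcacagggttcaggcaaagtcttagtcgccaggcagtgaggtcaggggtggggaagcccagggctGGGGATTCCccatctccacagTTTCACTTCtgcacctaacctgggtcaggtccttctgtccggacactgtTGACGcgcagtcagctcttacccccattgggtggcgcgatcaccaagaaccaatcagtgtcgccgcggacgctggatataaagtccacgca
H2-D1: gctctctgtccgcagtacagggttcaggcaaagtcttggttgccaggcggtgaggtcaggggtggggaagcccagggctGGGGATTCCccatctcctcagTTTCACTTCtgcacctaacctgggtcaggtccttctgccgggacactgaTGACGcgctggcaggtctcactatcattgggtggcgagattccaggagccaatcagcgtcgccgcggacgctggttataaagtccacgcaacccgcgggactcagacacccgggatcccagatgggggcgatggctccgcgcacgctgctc
B2m: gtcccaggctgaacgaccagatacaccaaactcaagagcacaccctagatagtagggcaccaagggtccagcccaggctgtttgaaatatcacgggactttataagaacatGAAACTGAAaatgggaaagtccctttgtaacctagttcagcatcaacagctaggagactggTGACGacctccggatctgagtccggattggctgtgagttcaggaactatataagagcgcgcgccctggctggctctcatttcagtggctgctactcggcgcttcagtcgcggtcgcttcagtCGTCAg
Tap1: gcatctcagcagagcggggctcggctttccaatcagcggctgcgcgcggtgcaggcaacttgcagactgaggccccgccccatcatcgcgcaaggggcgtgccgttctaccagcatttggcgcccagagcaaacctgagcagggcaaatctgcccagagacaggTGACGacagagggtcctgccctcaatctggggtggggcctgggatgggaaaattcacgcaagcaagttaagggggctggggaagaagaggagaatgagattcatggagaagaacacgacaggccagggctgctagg
The H2-K1 and H2-D1 windows were 87.4% identical over 190 aligned bases, and both held the kappa B letters, which 0.259% of 27025 mouse promoter windows hold (70 windows). GAANNGAAA was present in H2-K1, H2-D1 and Psme1, against 7.56% of all windows, and GAAANNGAA in B2m and Psme1, against 8.57%. TGACG was present in 5 of the 8 members with a window, against 21.02% of all windows, and CCAAT in 6 of 8, against 37.9%. TTCNNNGAA, the gamma-activated site, was present in Psmb8 alone among the 8, against 8.47%. Matches were sought on both strands. The Tap1 window held neither interferon motif, and 275 of its bases are shared with the window of Psmb9. The motifs were picked with these windows in view, so the matches describe the letters and nothing more.

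Values rest on 3715, 4642, 2722 and 3235 barcodes at days 0, 1, 2 and 5, those in which 500 or more genes were found and fewer than 10% of the UMIs (unique molecular identifiers, each standing for 1 captured RNA molecule) were mitochondrial. Their median depth was 1057, 3607.5, 4183.5 and 3897 UMIs, so the day 0 library was much shallower, and 13 to 53 barcodes were shared by any pair of libraries. At day 0 3760 of 7542 barcodes had fewer than 500 genes, and 49.3% were retained. The retained share was 99.3%, 98.8% and 99.1% at days 1, 2 and 5. Ratios to day 0 thus set the part of day 0 with more genes found against nearly whole libraries. Pan-leukocyte and macrophage markers (8 of 8 listed at each day) summed to between 23653 and 30951 CPM, the field's depth-scaled count (a gene's UMIs over all UMIs of the pool, scaled to a common total), and Ly6g was listed in no library. The 7 neutrophil markers, Ly6g among them, summed to between 7.57 CPM at day 1 and 36.6 CPM at day 5, when 3 of 7 were listed. Markers of monocytes (5 genes) summed to 116, 193, 205 and 1198 CPM at days 0, 1, 2 and 5. Over the same days lining macrophage markers summed to 3575, 3677, 4287 and 2360.1 CPM, interstitial ones to 3462, 5284, 3879 and 2611 CPM, class II-high ones to 11368, 15074, 11431 and 16632 CPM, and dendritic ones to 73.1, 134, 83.0 and 123 CPM. The levels of these marker RNAs thus differed between days. Such sums cannot tell a changed mix of cells from changed RNA in each cell. Markers of NK and T cells, which also transcribe class I, summed to 13.3 CPM at day 0, 0.411 CPM at day 2, and were at 0, with none listed, at days 1 and 5. Markers of fibroblasts summed to between 43.2 and 120 CPM and those of red cells to between 0 and 161 CPM. The part of these cells and of depth in the member values was not tested.

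Both heavy chains were higher after serum transfer than at steady state. H2-D1, a classical heavy chain, stood at 1682, 2226, 2422 and 2278 CPM at days 0, 1, 2 and 5, which is 1.32, 1.44 and 1.35 times day 0. H2-K1, the other classical heavy chain, stood at 449.9, 533, 595 and 585 CPM, or 1.19, 1.32 and 1.30 times day 0 (intervals 1.13 to 1.245, 1.26 to 1.39 and 1.24 to 1.37). For both genes day 0 was lowest and no day 0 interval overlapped that of a later day. Day 2 was highest for H2-D1, while days 2 and 5 of H2-K1 did not differ beyond counting error (ratio of day 5 to day 2 0.984, 0.954 to 1.02). In sums over a library, a larger share of cells rich in a gene and more of its RNA in each cell cannot be told apart. B2m, the invariant light chain, differed much less between days, at 3125, 3166, 3344 and 3255 CPM. Its ratios to day 0 were 1.01 (0.994 to 1.03), 1.07 (1.05 to 1.09) and 1.04 (1.02 to 1.06), and they became 0.912, 0.974 and 0.964 when libraries were scaled to the median gene. The 3 comparisons share the day 0 library.

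**Figure D1:**
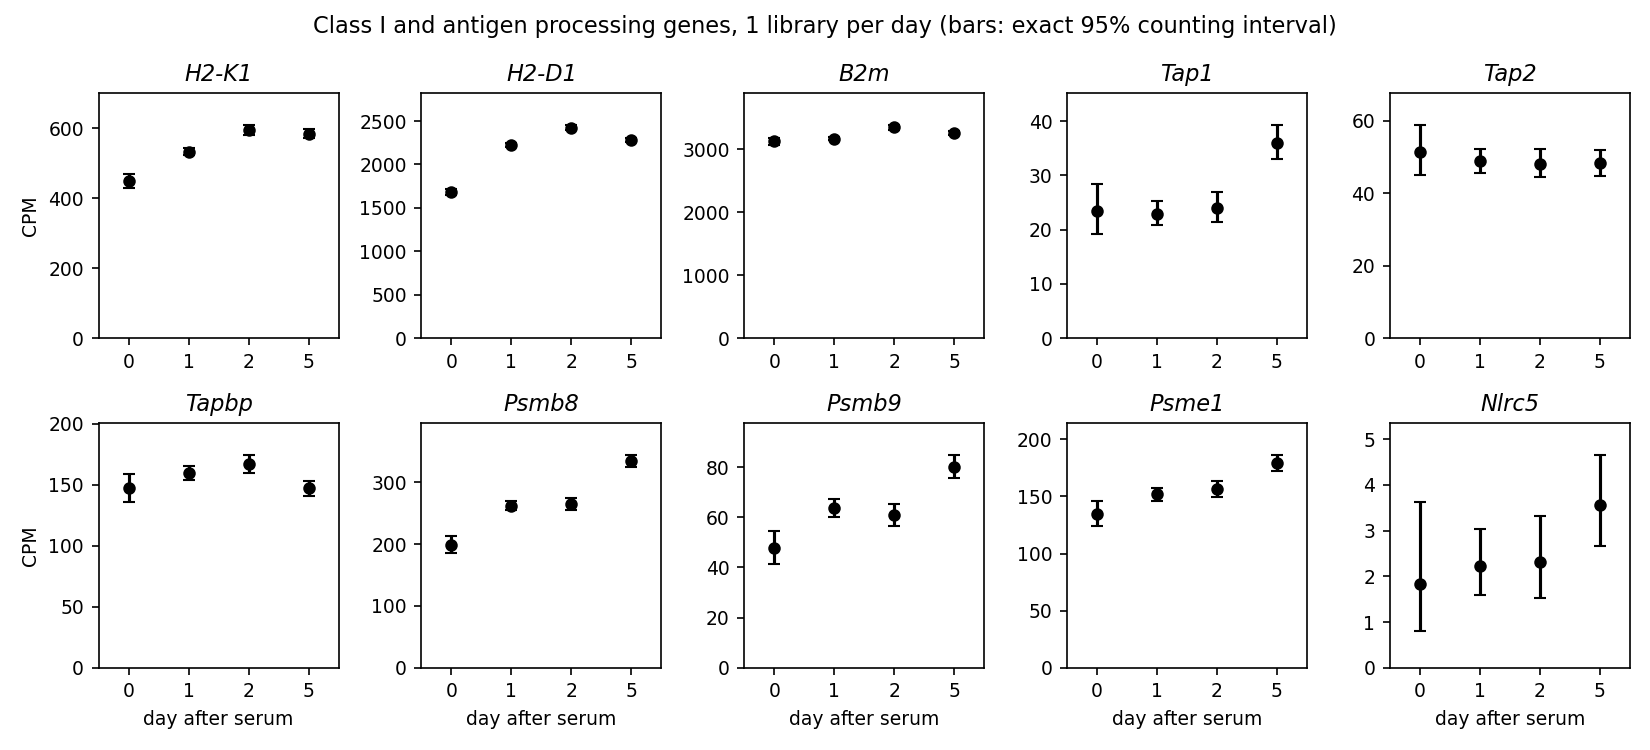
CPM of each of the 10 genes (vertical axes, each starting at 0) against day after serum (horizontal axis), 1 library per day, with exact 95% counting intervals as bars. H2-K1 and H2-D1 are lowest at day 0, whereas Tap1, Psmb8, Psmb9 and Psme1 are highest at day 5.

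The transport and loading genes showed 3 different courses. Tap1, a subunit of the peptide transporter, was at 23.5, 22.97, 24.02 and 36.0 CPM (102, 422, 292 and 537 UMIs) at days 0, 1, 2 and 5, and day 5 was at 1.54 times day 0 (1.24 to 1.92). Tap2, its partner subunit, was at 51.5, 48.9, 48.2 and 48.2 CPM, and the interval of each ratio to day 0 held 1 (0.819 to 1.10, 0.801 to 1.10 and 0.805 to 1.09). Tapbp, which encodes tapasin, was at 147, 160, 167 and 147 CPM, with day 2 at 1.14 times day 0 (1.04 to 1.24). Day 5 thus stood apart for Tap1 and not for Tap2, its partner in the transporter. Summed, the 3 genes reached 222, 232, 239 and 231 CPM.

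The proteasome genes were higher at every later day. Psmb8, the interferon-inducible subunit LMP7, was at 199, 262, 265 and 335 CPM at days 0, 1, 2 and 5. Psmb9, the inducible subunit LMP2, was at 47.6, 63.5, 60.9 and 80.1 CPM. Psme1, a subunit of the PA28 activator that caps the proteasome, was at 135, 152, 157 and 179 CPM. In each of the 3, days 1 and 2 lay close together, between day 0 below and day 5 above. At day 5 Psmb8 and Psmb9 were both at 1.68 times day 0 (1.57 to 1.81 for Psmb8, 1.45 to 1.96 for Psmb9) and Psme1 at 1.33 times (1.21 to 1.45). Psme1 shares 17.4% of the 50-base words in the last 400 bases of its transcript with Gm7776 and Gm46496, and H2-D1 shares 12.3% of them with other genes, so the counts of these members are less certain. Nlrc5 was near the limit of detection, with 8, 41, 28 and 53 UMIs (1.84, 2.23, 2.303 and 3.56 CPM), and its day 5 ratio of 1.93 had an interval from 0.913 to 4.71.

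Counting ratios of at least 1.5, among genes with at least 10 CPM in 1 library of the pair (9 of the 10 members), 0 of 9 members were higher at day 1, where 13.9% of all genes measured were. At day 2 the count was 0 of 9, against 13.8% of all genes. At day 5 it was 3 of 9 (Tap1, Psmb8 and Psmb9), against 17.0%, and 2 of 9 with median-ratio scaling, under which Tap1 was at 1.42 times day 0. None of the 9 was lower by that size, against 5.17%, 6.19% and 9.17% of all genes at days 1, 2 and 5. The median log2 ratio of the 9 was 0.17, 0.21 and 0.41 at days 1, 2 and 5, beside 0.15, 0.14 and 0.11 over all genes measured, so the medians differed little at day 1 and most at day 5. Relative to that gene median H2-K1, H2-D1, Psmb8, Psmb9 and Psme1 stayed above day 0 at all 3 later days, B2m and Tap2 lay below it, Tap1 lay above it at day 5 alone, and Tapbp at day 2 alone. Over the 10 genes together the level was 5862, 6637, 7084 and 6948 CPM at days 0, 1, 2 and 5, or 1.13, 1.21 and 1.19 times day 0. Without B2m, which holds the largest part of that sum, the ratios were 1.27, 1.37 and 1.35.

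The share of barcodes with at least 1 UMI followed depth closely. For H2-K1 it was 40.3%, 77.3%, 83.1% and 84.7% at days 0, 1, 2 and 5 as counted, and 20%, 21.3%, 23.99% and 24.5% after each barcode was thinned to 500 UMIs. For Psmb8 the thinned shares were 9.66%, 11.1%, 12.2% and 15.4%, and for B2m they were 79.1%, 76.2%, 77.1% and 76.8%. Class I is transcribed by nearly all nucleated cells, so no cell type here lacks it and a background of free RNA could not be read for the members. In thinned barcodes the variance of the summed member UMIs was 1.03, 1.31, 1.44 and 1.55 times their mean at days 0, 1, 2 and 5, where 1 is the value of pure counting. At equal depth, barcodes thus differed from each other in class I content least at day 0 and most at day 5. Before thinning, the summed members had a median of 5708, 6205, 6679 and 6821 CPM per barcode.

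Barcodes were then divided by whether they held at least 1 UMI of a marker: Sparc for lining macrophages, Cd163 for interstitial macrophages, H2-Aa for MHC class II-high cells, Plac8 for recruited monocytes and Isg15 for interferon response. These sets overlap, a barcode with 1 UMI may hold free RNA, and negative barcodes include cells in which the marker was missed. The part of free RNA in the ratios was not tested. At day 0 Sparc and Plac8 were poorly separated: Sparc UMIs were found in 62.5% of the 32 Plac8 positive barcodes and in 51.5% of all barcodes. At day 5 these shares were 8.60% and 28.3%. Cd163 UMIs were found in 12.5% of Plac8 positive barcodes of day 0, against 22.8% of all. At day 0 the summed members in positive over negative barcodes were at 1.06 for Sparc (1.03 to 1.09), 0.981 for Cd163 (0.953 to 1.01), 1.00 for H2-Aa (0.978 to 1.03), 1.09 for Plac8 (32 barcodes, 0.958 to 1.24) and 1.22 for Isg15 (50 barcodes, 1.12 to 1.34). Values below are for days 1, 2 and 5. A gene was counted here when it had at least 10 CPM in 1 pool and would have had at least 10 UMIs in each pool at their joint level, a limit added after the counts were seen.

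Sparc positive barcodes had more of the cell-surface complex and of tapasin than the rest, but not of Tap1 or Psme1. Over days 1, 2 and 5 B2m was at 3618, 3706 and 3964 CPM in Sparc positive barcodes, against 2804.5, 2936 and 2953 CPM in Sparc negative barcodes. The ratios were 1.29, 1.26 and 1.34. H2-K1 stood at 620.1, 672 and 713 CPM in positive barcodes, against 464, 507 and 531 CPM in negative ones, ratios of 1.34, 1.33 and 1.34. H2-D1 differed less, with ratios of 1.06, 1.02 and 1.12. Tapbp was 1.33, 1.29 and 1.2504 times higher in Sparc positive barcodes. Psmb8 was 1.09 and 1.08 times higher in positive barcodes at days 1 and 2, and at day 5 it lay the other way, at 287 CPM in positive and 355 CPM in negative barcodes (ratio 0.809, 0.758 to 0.862). Psme1 at day 5 was at 154 CPM in positive and 189.9 CPM in negative barcodes (0.813, 0.744 to 0.887). Tap1 at day 5 was at 22.02 CPM in Sparc positive and 42.0 CPM in Sparc negative barcodes, a ratio of 0.524 (0.417 to 0.654) and the 1 of 9 members past 1.5-fold lower, where 12.0% of all genes measured were lower; 0 of 9 were higher, against 15.1%. The negative barcodes of day 5 include most of those with Plac8. Set against the 427 barcodes of day 5 positive for none of the 5 markers, the 405 positive for Sparc alone had 1.49 times the B2m, 1.45 times the H2-K1 and 1.68 times the Tapbp, and Tap1 was at 0.857 times (0.5003 to 1.46). In that comparison Psmb8 was 1.19 times, Psmb9 1.45 times and Psme1 1.06 times the level of barcodes with none, so the direction of these 3 at day 5 depended on which barcodes the Sparc positive ones were set against. Sparc positive barcodes were themselves deeper, with medians of 4436, 4747 and 4437 UMIs at days 1, 2 and 5, against 3116, 3579 and 3730 in negative ones.

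In Sparc positive barcodes the later days also differed from day 0. H2-K1 was 1.34, 1.45 and 1.54 times its level in the Sparc positive barcodes of day 0 at days 1, 2 and 5, and B2m 1.13, 1.16 and 1.24 times. Tap1 was 0.893, 0.950 and 0.929 times its day 0 level in those barcodes, so the day 5 level of Tap1 in the whole library was not seen in them. In H2-Aa positive barcodes, by contrast, Tap1 at day 5 was 1.77 times its day 0 level and B2m 0.990 times. Of the H2-Aa positive barcodes, 28.5% were also Plac8 positive at day 5, against 0.976% at day 0, so these pools differed in make-up. For Sparc positive barcodes these shares were 7.76% at day 5 and 1.04% at day 0.

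Cd163 positive barcodes had slightly less class I RNA. The classical heavy chains summed to 2619, 2879 and 2781 CPM in Cd163 positive barcodes at days 1, 2 and 5, against 2880.2, 3121 and 2889 CPM in negative ones, ratios of 0.909, 0.922 and 0.963. B2m was at 0.910 (0.895 to 0.925) and 0.950 (0.932 to 0.969) times the negative level at days 1 and 2. At day 5 it was at 1.03 times (1.01 to 1.06), and at 0.982 when barcodes were thinned to 500 UMIs and positives called again. After thinning 3054 barcodes of day 5 held no Cd163 UMI, against 2446 before, so the sets changed as well as the depth. Psmb8 was at 0.870, 0.986 and 0.846 times. Over the 9 members with at least 10 CPM and these 3 days, the ratios lay between 0.715 (Tap1 at day 5) and 1.14 (Tap1 at day 2).

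H2-Aa positive barcodes, which carry class II, had less of the light chain and more Tap1, Psmb8 and Psme1. B2m was at 2945, 3130 and 3066 CPM in H2-Aa positive barcodes at days 1, 2 and 5, against 3310, 3482 and 3471 CPM in negative ones, ratios of 0.890, 0.899 and 0.883. Tapbp was at 0.903, 0.872 and 0.924 times, the last with an interval that held 1 (0.849 to 1.01), and at 1.02, 1.11 and 1.04 times when barcodes positive for H2-Aa alone were set against those with none of the 5 markers. Tap1 was at 28.7, 28.0 and 43.6 CPM in positive barcodes, against 19.2, 21.4 and 27.4 CPM in negative ones. Its ratios of 1.49, 1.31 and 1.59 had intervals above 1 at each of these days, and at day 5 it was the 1 of 9 members past 1.5-fold higher, against 4.41% of all genes measured. Psmb8 was 1.19, 1.11 and 1.30 times and Psme1 1.18, 1.13 and 1.21 times the level in negative barcodes. Over all 4 days, Psmb9 lay between 0.989 and 1.26 times, with an interval above 1 at 1 of them. Tap1, Tap2 and Tapbp summed lay between 0.943 and 1.07 times, and each interval held 1. The heavy chains together were at 1.07, 1.02 and 0.995 times, so the summed members give no single direction: 0.985, 0.965 and 0.963 with B2m, and 1.08, 1.03 and 1.04 without it.

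**Figure D2:**
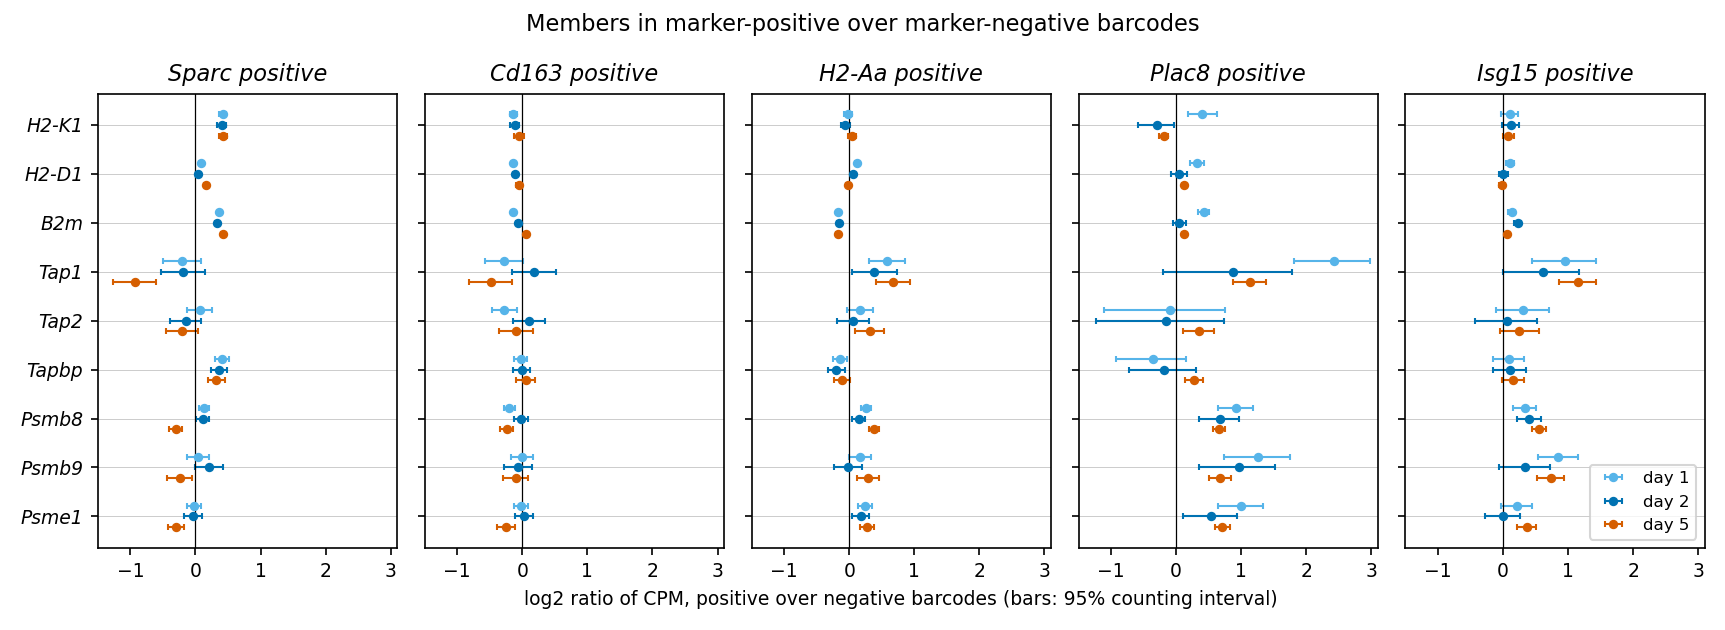
Log2 ratio of CPM in marker positive over marker negative barcodes (horizontal axes) for the 9 members that reach 10 CPM (vertical axis), in 1 panel per marker and 1 colour per day, with 95% counting intervals. H2-K1, B2m and Tapbp lie right of 0 in the Sparc panel, while Tap1, Psmb8, Psmb9 and Psme1 lie furthest right in the Plac8 panel.

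Plac8 positive barcodes of day 5 had more of the inducible peptide machinery and less H2-K1 than the rest of that library. There were 59 and 52 such barcodes at days 1 and 2 and 826 at day 5, when they made up 25.5% of the retained barcodes. At day 5 Tap1 was at 60.7 CPM in Plac8 positive and 27.7 CPM in negative barcodes, a ratio of 2.19 (1.84 to 2.61). Psme1 was at 253 and 154 CPM (1.64, 1.51 to 1.77). Psmb9 was at 111 and 69.6 CPM (1.60, 1.42 to 1.80), and Psmb8 at 461 and 292 CPM (1.58, 1.49 to 1.67). These were 4 of 9 members past 1.5-fold higher, against 9.63% of all genes measured, while 0 of 9 were past it lower, against 24.1%. The median log2 ratio was 0.35 over the 9 members and -0.18 over all genes measured. For H2-K1 there were 529 CPM in positive and 605 CPM in negative barcodes (0.875, 0.832 to 0.920). H2-D1 and B2m were 1.09 and 1.08 times higher in positive barcodes.

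At days 1 and 2 the Plac8 pools were small. In them 3 of 8 measured members were past 1.5-fold higher at day 1 (9.07% of all genes measured) and 2 of 8 at day 2 (9.34%). Tap1 is not among the 8, because the limit on expected UMIs, added after the counts were seen, left it out. At day 1 Tap1 was at 116.5 CPM in Plac8 positive and 21.7 CPM in negative barcodes, a ratio of 5.36. At day 2 Tap1 was at 43.3 and 23.6 CPM. Psmb8 was at 1.89 and 1.59 times the level in negative barcodes at days 1 and 2, Psmb9 at 2.40 and 1.96 times, and Psme1 at 2.00 and 1.45 times. Thinned to 500 UMIs, with positives called again on the thinned counts, Psmb9 at day 1 was at 0.895 times. Of the 4642 barcodes of day 1, 4609 then held no Plac8 UMI, so that value rests on a still smaller pool. H2-K1 lay below these 3 genes at both days but on different sides of 1: it was 1.32 times higher (1.13 to 1.54) in Plac8 positive barcodes at day 1 and at 0.813 times (0.669 to 0.980) at day 2. The 258 barcodes of day 5 positive for Plac8 alone had 2.31 times the Tap1, 2.13 times the Psmb9, 1.77 times the Psme1 and 1.74 times the Psmb8 of the 427 barcodes with none of the 5 markers, and 0.815 times the H2-K1.

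Isg15 positive barcodes were 193, 163 and 376 at days 1, 2 and 5, and 51.1% of those at day 5 were Plac8 positive. Tap1 was at 42.5, 35.5 and 68.7 CPM in Isg15 positive barcodes at days 1, 2 and 5, against 21.9, 23.2 and 31.0 CPM in negative ones (ratios 1.94, 1.53 and 2.21). Psmb9 was 1.80, 1.27 and 1.67 times and Psmb8 1.26, 1.32 and 1.47 times the level in negative barcodes. The members past 1.5-fold higher were 2 of 9 at day 1 (Tap1 and Psmb9), 1 of 9 at day 2 (Tap1) and 2 of 9 at day 5 (Tap1 and Psmb9), against 3.23%, 3.02% and 4.14% of all genes measured. Of these, Psmb9 at day 1 was at 0.923 times when barcodes were thinned to 500 UMIs and positives called again. Of the 4642 barcodes of day 1, 4610 then held no Isg15 UMI, so that value rests on a much smaller pool. Tap1 at day 2 was at 0.653 times in barcodes positive for Isg15 alone against those with none of the 5 markers. H2-D1 was at 1.08, 1.00 and 0.994 times, with intervals that held 1 at days 2 and 5. Over all 4 days, B2m lay between 1.04 and 1.29 times and the summed members between 1.07 and 1.22 times, with each interval above 1. Thinned to 500 UMIs, B2m at day 1 was at 0.988 times. In barcodes positive for Isg15 alone at day 5, B2m was at 0.895 times and the sum at 0.939 times. Barcodes with Isg15 and no other of the 5 markers numbered 35 at day 5. In them Psmb8 was 1.42 times the level of barcodes with none (1.06 to 1.88), Tap1 1.94 times (0.721 to 4.47), and Psme1 0.754 times (0.446 to 1.21).

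Grading barcodes by the number of marker UMIs, with each barcode thinned to 500 UMIs so that depth was equal, gave the following levels of the summed members. At day 5 they were at 6958 CPM in barcodes with 0 Plac8 UMIs, 7839 CPM with 1, 9071 CPM with 2 to 4 and 11533 CPM with 5 or more (30 barcodes, interval 9879 to 13386). At day 2 they were at 6591 CPM in barcodes with 0 Sparc UMIs, 7908 CPM with 1 and 8715 CPM with 2 to 4. At day 1 they were at 6641, 5990 and 5401 CPM in barcodes with 0, 1 and 2 to 4 Cd163 UMIs. Within its own scale, the level was thus highest at the top for Plac8 at day 5 and Sparc at day 2 and lowest at the top for Cd163 at day 1. Sparc had the same order at day 0 (5808, 6120 and 6375 CPM) and day 1 (6279, 7423 and 7619 CPM), and Cd163 at day 2 (7083, 6429 and 6185 CPM). In each of these, the intervals at 1 and at 2 to 4 UMIs overlapped. Other days and markers did not all share these orders. At day 0 the Cd163 scale held 5931, 5839 and 6667 CPM, with overlapping intervals. At day 5 the H2-Aa scale held 7073, 7344, 6931 and 7752 CPM in barcodes with 0, 1, 2 to 4 and 5 or more UMIs, with no steady order. Barcodes with 1 Isg15 UMI held 9143 CPM at day 5 (70 barcodes), against 7103 CPM with 0, and at day 1 they held 6357 CPM (28 barcodes), against 6521 CPM with 0. At day 5 the same steps held 6956, 8498 and 8255 CPM on the Sparc scale, with overlapping intervals at 1 and at 2 to 4 UMIs. On the Cd163 scale of day 5 they held 7177, 6889 and 7056 CPM, and all 3 intervals overlapped.

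**Figure D3:**
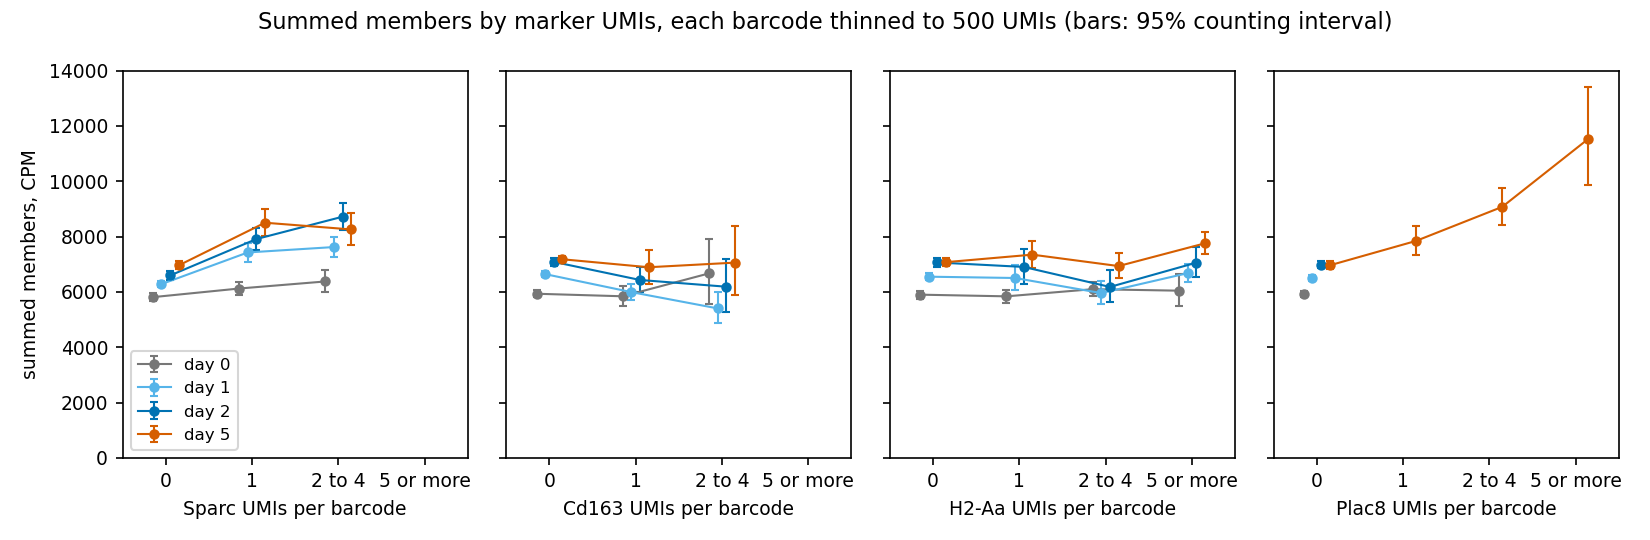
Summed CPM of the 10 members (vertical axis, from 0) against the number of marker UMIs in each barcode (horizontal axes), after thinning to 500 UMIs, with 1 colour per day, 95% counting intervals as bars and points of fewer than 20 barcodes left out. Within a scale, the level is highest at the top for Plac8 at day 5 (11533 CPM) and for Sparc at days 0, 1 and 2 (8715 CPM at day 2). The level is also highest at the top for H2-Aa at days 1 and 5 (6674 and 7752 CPM) and for Cd163 at day 0 (6667 CPM). It is lowest at the top for Cd163 at days 1 and 2 (5401 CPM at day 1).

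The day 5 and day 2 libraries, which are close in depth, were set against each other with and without the Plac8 positive barcodes, a comparison added after the data were seen. With all barcodes Tap1 at day 5 was 1.501 times day 2 (1.30 to 1.74), the 1 of 9 members past 1.5-fold higher (8.58% of all genes measured), with none past it lower (8.06%). Psmb9 was 1.32 times, Psmb8 1.26 times and Psme1 1.14 times day 2, and Tapbp was 0.881 times. In barcodes without Plac8 the same ratios were 1.17 (0.993 to 1.38) for Tap1, 1.16 for Psmb9, 1.11 for Psmb8 and 0.994 for Psme1. In barcodes with neither Plac8 nor Isg15, Tap1 was at 1.08 times (0.908 to 1.30) and Psmb8 at 1.10 times. Since Plac8 positive barcodes hold more of these 4 genes and are far more frequent at day 5 than at day 2, lower ratios without them follow from the values already given; the sizes are a description. H2-D1 was at 0.941 with all barcodes and 0.921 without Plac8 positive ones. Against day 0, the Plac8 negative barcodes of day 5 still had 1.48 times the Psmb8 and 1.49 times the Psmb9, and Tap1 was at 1.18 times (0.940 to 1.49).

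**Figure D4:**
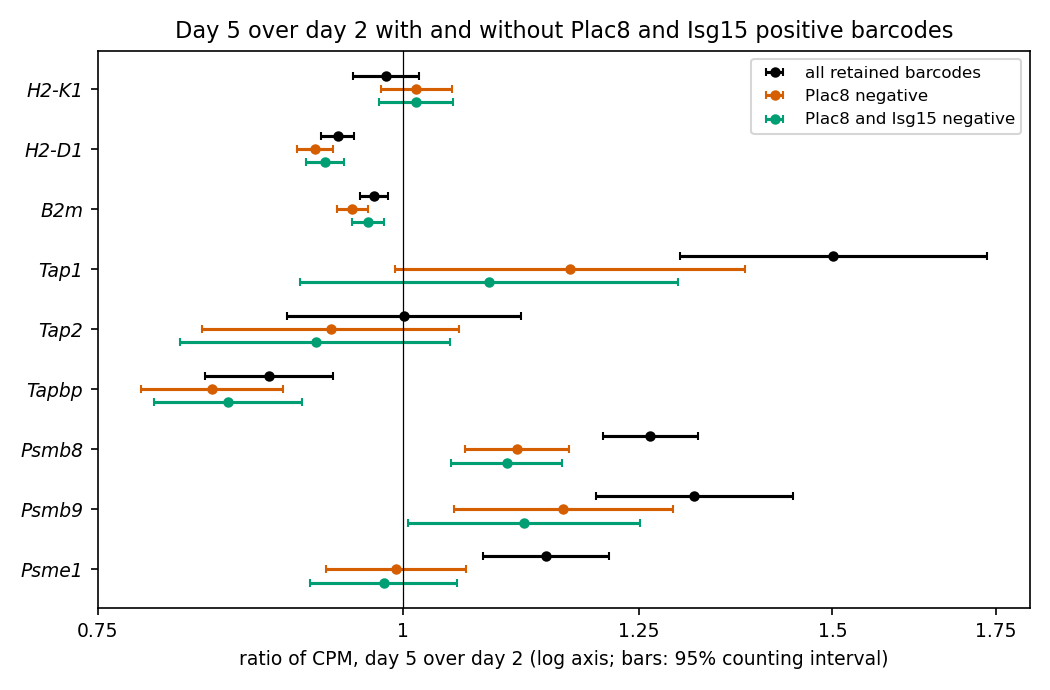
Ratio of CPM at day 5 over day 2 (horizontal log axis) for the 9 members that reach 10 CPM (vertical axis), in all retained barcodes, in Plac8 negative barcodes and in barcodes negative for Plac8 and Isg15, with 95% counting intervals. Tap1 is at 1.501 with all barcodes and 1.17 and 1.08 in the other sets, and Psme1 is at 1.14 and then 0.994 and 0.982.

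Other genes of the pathway were taken from lists and set beside the members with the same rule and the same shares of all genes. Of the heavy chains outside the members, 3 of 7 measured were past 1.5-fold higher at day 1, 4 of 7 at day 2 and 3 of 8 at day 5, with median log2 ratios of 0.58, 0.61 and 0.01. The 1 of 8 that was lower at day 5 was Mr1, which presents microbial vitamin B metabolites, at 5.37 CPM, against 11.7 CPM at day 0. The nonclassical H2-T23 was 1.72, 1.65 and 1.72 times day 0 at days 1, 2 and 5, and H2-Q4 was 1.80, 2.16 and 1.55 times. H2-Q7 was 3.19 times day 0 at day 5 (14.7 CPM at day 5, against 4.6003 CPM at day 0), although it and H2-Q4 belong to a family of close copies among which reads may be split. Fcgrt, the heavy chain of the neonatal Fc receptor, which binds IgG and pairs with B2m, was at 380.2, 627, 627 and 330 CPM at days 0, 1, 2 and 5, ratios to day 0 of 1.65, 1.65 and 0.867. At day 5 Fcgrt was at 95.4 CPM in Plac8 positive and 409 CPM in negative barcodes.

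Among 18 other processing and loading genes, 3 of 16 measured were past 1.5-fold higher at day 1, 5 of 16 at day 2 and 8 of 18 at day 5, and none was lower, with median log2 ratios of 0.31, 0.40 and 0.55. Pdia3, the oxidoreductase of the loading complex, was 1.87, 1.85 and 1.85 times day 0, and the chaperone Hspa5 1.57, 1.73 and 1.85 times. The cytosolic protease Ide was at 2.31, 2.14 and 2.44 times day 0, and at day 5 the aminopeptidase Lnpep was at 3.31 times and the peptidase Thop1 at 2.22 times. In Plac8 positive barcodes of day 5, Lnpep was 1.65 times higher than in negative ones, whereas Thop1 and Ide were at 0.555 and 0.587 times. Of the 14 constitutive proteasome subunits 0 were past 1.5-fold at any of the 3 days, with median log2 ratios of -0.01, -0.05 and 0.18, below those of the members at each day.

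Of 20 measured regulators, 4, 4 and 6 were past 1.5-fold higher and 2, 1 and 1 lower at days 1, 2 and 5, with medians of 0.25, 0.35 and 0.54. Irf1, a factor that binds class I and Psmb9 promoters, was 0.536, 0.763 and 0.426 times day 0. Rfxap, a subunit of the RFX complex that binds class I and class II promoters, was 0.435, 0.279 and 0.811 times. Ciita, the class II transactivator, was 2.08 times higher in Plac8 positive than in negative barcodes of day 5. The interferon gamma-type list was mixed, with 3, 3 and 2 of 9 higher and 4, 2 and 3 of 9 lower and medians of -0.03, 0.20 and 0.12. Some of its genes, Irf1 among them, are also on the list of regulators. Its guanylate-binding protein Gbp2 was at 0.400, 0.398 and 0.436 times day 0 and the chemokine Cxcl10 at 0.181, 0.253 and 0.774 times. Type I interferon-stimulated genes were 4 of 9, 7 of 10 and 9 of 11 higher, with none lower and medians of 0.53, 0.68 and 1.99. Of that list Oas1a was 11.2 times, Oasl2 6.81 times and Ifitm3 5.17 times day 0 at day 5. In Plac8 positive barcodes of day 5, 10 of 13 of them were higher, including Irf7 at 5.99 times the level in negative barcodes. Class II genes gave 2 of 7, 0 of 6 and 4 of 7 higher, with medians of 0.45, -0.01 and 0.63, lowest at day 2, where the classical class I heavy chains had their highest sum.

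Over 20 pools of marker positive barcodes (5 markers at 4 days), the genes whose levels followed the members most closely after each day's mean was removed were Nampt (r = 0.82), Irf8 (0.81), Plekhf2 (0.80), Pnp (0.80) and Trafd1 (0.80), among 4011 genes with a median r of -0.12. The pools of a day share a library and many barcodes, so these values describe the pools and carry no p. With day means kept 3 of the first 10 genes were the same, and with pools positive for 1 marker alone 0 of 10 were, so no gene held its place in all 3 settings. Of the members, Tap1 (0.68) and H2-D1 (0.66) followed the rest most closely and Psme1 (0.10) and Tapbp (0.18) least. All 20 pools were used whatever their size, down to 38681 UMIs in the Plac8 positive barcodes of day 0. In that pool Tap1 was at 25.9 CPM and Psme1 at 51.7 CPM, so few UMIs stand behind genes of low level there.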

How the data were processed

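Myeloid cells of hind paw synovium were captured with a 10x 3′ version 2 kit, with 17400 cells loaded per library, per the labels' protocols. The deposited values are UMI counts per gene and barcode, not normalised. Cell Ranger 2.1.0, Seurat 2.3, R 3.5.2 and mm10 are named in the submitters' processing notes; how reads were assigned by strand is not given there. No listed gene was found in fewer than 5 barcodes of its file.

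Retained barcodes had 500 genes or more and mitochondrial UMIs below 10%. UMIs were summed per library or per marker pool and divided by the pool's total (CPM). Retained totals were 4347517, 18373038, 12159063 and 14901661 UMIs at days 0, 1, 2 and 5. CPM have exact Poisson intervals, ratios conditional binomial intervals and shares Clopper-Pearson intervals, all at 95%. A count of 0 was set to 3 in ratios. Genes were counted as measured by day with at least 10 CPM in 1 library of a pair, and between pools also with at least 10 UMIs expected in each. Doublets were not removed; an alternative left out the 5% of barcodes with the most UMIs. Named genes were the members, in each list and comparison up to 4 genes with the largest ratio in either direction, and the 10 genes of most similar pattern, of which 5 are given. Pattern likeness was Pearson's r of log2(CPM + 5) over genes of at least 20 CPM in every library. The calculation of ratios and intervals was run on simulated Poisson counts. Those counts leave out the spread between barcodes, so the run checks the calculation only. Scripts ran in Python 3.11.15 with pandas 2.3.3, SciPy 1.17.1 and NumPy 2.4.6, and figures were drawn with matplotlib 3.10.9. The members and lists were chosen with earlier results of these data known.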

Additional observations from a re-analysis of the deposited data

Results flagged for a closer look

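In 3 marker comparisons a member lay on opposite sides of 1 at different days, with counting intervals that did not reach 1; the differences between days were not tested. Psmb8 in Sparc positive over Sparc negative barcodes was at 1.09 at day 1 and 1.08 at day 2, and at 0.809 at day 5. B2m in Cd163 positive over negative barcodes was at 0.910 at day 1, 0.950 at day 2 and 1.03 at day 5. H2-K1 in Plac8 positive over negative barcodes was at 1.32 at day 1 (59 positive barcodes), 0.813 at day 2 (52 positive barcodes) and 0.875 at day 5 (826 positive barcodes).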

How the results depend on the processing

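No paired analysis was possible because each day has 1 library. Of 2529 values recomputed under an alternative, 1927 were labelled as the same, 560 as moved and 42 as turned. For ratios, the same meant a move by less than the counting interval. Only ratios whose interval left out 1 were labelled as turned. B2m at day 1 over day 0 went from 1.01 (0.994 to 1.03) to 0.912 with median-ratio scaling and is not among the 42. Counts of genes and of days have no such interval and were labelled by the size of their change. The causes were not tested. Depth limits day 0: a minimum of 1000 genes leaves 96 barcodes there, and a minimum of 200 keeps 7374.

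The summed members over day 0 were, at days 1, 2 and 5, 1.11, 1.18 and 1.16 with 200 genes, 1.20, 1.28 and 1.246 with 1000 genes, 1.10, 1.17 and 1.16 with mitochondrial UMIs under 5%, 1.02, 1.10 and 1.10 with median-ratio scaling, 1.10, 1.18 and 1.21 as a mean of barcodes, and 1.27, 1.37 and 1.35 without B2m. Without mitochondrial, ribosomal protein and haemoglobin UMIs days 1 and 2 were at 1.10 and 1.17, and without the 5% of barcodes with the most UMIs day 5 was at 1.24. Plac8 negative barcodes gave 1.153 at day 5, and those negative for Plac8 and Isg15 gave 1.16. The summed ratio of day 5 to day 2 (0.981) was 1.02 without the 5% with the most UMIs, 1.01 with median-ratio scaling, 1.03 without mitochondrial, ribosomal protein and haemoglobin UMIs, 1.03 as a mean of barcodes, 0.992 with mitochondrial UMIs under 5%, 0.954 in Plac8 negative barcodes and 0.962 in those negative for both; B2m was at 1.02 without the 5% with the most UMIs, 1.02 without those gene classes and 1.03 as a mean of barcodes. Day 2 over day 1 was 1.08 with median-ratio scaling and 1.08 without B2m. B2m over day 0 was 0.974 and 0.964 at days 2 and 5 with median-ratio scaling, and Tapbp at day 2 was 0.900 with 1000 genes. Psme1 at day 5 over day 2 was 0.994 in Plac8 negative barcodes and 0.982 in those negative for both. Members past 1.5-fold higher numbered 2 at day 1 and 3 at day 2 with 1000 genes, and, at day 5, 2 with median-ratio scaling (Tap1 at 1.42) and 0 at a fold of 2. No share of all genes is given under these settings, so these counts cannot be set against one.

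With barcodes positive for 1 marker alone against none of the 5, day 5 Sparc ratios were 1.19 for Psmb8, 1.45 for Psmb9 and 1.06 for Psme1, Cd163 gave 1.00 for B2m at day 2 and 1.06 for Psme1 at day 5, and H2-Aa gave 1.02 and 1.11 for Tapbp at days 1 and 2 and 1.04, 1.04 and 1.02 for the summed members at days 1, 2 and 5. Isg15 alone gave 0.653 for Tap1 at day 2 and, at day 5, 0.939 for the sum, 0.895 for B2m and 0.754 for Psme1. Under thinning, markers were called again on the thinned counts, so the positive and negative sets changed as well as the depth. Thinned to 500 UMIs, B2m in Cd163 barcodes at day 5 was at 0.982, Tap2 in H2-Aa barcodes at day 0 at 0.945, the H2-Aa sum at day 5 at 1.05, Psmb9 in Plac8 barcodes at day 1 at 0.895, and Isg15 ratios were 0.955 for H2-D1, 0.988 for B2m and 0.923 for Psmb9 at day 1 and 0.732 for Psme1 at day 5. B2m in Cd163 barcodes at day 5 was at 0.996 without the 5% with the most UMIs and 0.981 as a mean of barcodes, the H2-Aa sum at day 5 at 1.00 under both, and B2m in Sparc barcodes at day 0 at 0.938 with 1000 genes. Without B2m the H2-Aa sum was at 1.08, 1.03 and 1.04 at days 1, 2 and 5. The summed members were higher in Cd163 positive barcodes on 1 day of 4 with 1000 genes and on 1 with barcodes positive for it alone, against 0. For H2-Aa, higher on 1 day, the number was 0 with 1000 genes and with mitochondrial UMIs under 5%, 2 without the 5% with the most UMIs, thinned and as a mean of barcodes, and 4 with the marker alone and without B2m. For Plac8 and Isg15 alone it was 2 days each, of 2 and 3 with enough barcodes. Of the 10 genes of most similar pattern, 3 were the same with day means kept and 0 with barcodes positive for 1 marker alone.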
